A study of Rattus norvegicus with 17 samples.

Results

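Cultures of neonatal rat ventricular myocytes given phenylephrine were compared with cultures given control plasma. The samples were chosen by their titles, which gave 2 phenylephrine and 3 control plasma arrays, 5 of the 17 arrays of the series, and both groups are used whole. The myocytes came from Sprague-Dawley hearts and the labels give the cultures as 5 days old in every group. The other 12 cultures received 10% uremic plasma, the plasma of people with kidney failure, taken before (6 arrays) or after (6 arrays) nocturnal hemodialysis (NHD), which is dialysis given overnight. They serve here as further points of reference. The labels of the control plasma and phenylephrine samples repeat the treatment text with 10% uremic plasma. That text was taken to describe only the 12 uremic plasma cultures. Apart from it, the labels state neither the medium of the phenylephrine cultures, nor the dose or duration of phenylephrine, nor the share of control plasma. Phenylephrine and the absence or presence of plasma thus cannot be told apart in this comparison. No culture is labelled as phenylephrine added to plasma, and none is labelled as untreated. The samples of a group are called biological replicates without further detail, and the p-values measure only the spread between these samples, which may be technical.

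Phenylephrine is an agonist of alpha1-adrenergic receptors. In ventricular myocytes these receptors act through Gq, which activates phospholipase C, and the resulting inositol trisphosphate and diacylglycerol release calcium and activate protein kinase C. The pathway is a standard way to make cultured neonatal myocytes enlarge, and the genes most often read out are the natriuretic peptides Nppa and Nppb, skeletal actin Acta1 and the slow myosin heavy chain Myh7, which belong to the fetal programme of the ventricle.

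All values are log2 expression values, 1 per probe set and array, and 1 unit is a doubling. Differences are given as phenylephrine minus control plasma with the standard error of a limma fit of all 17 arrays, and a gene was called higher or lower where its adjusted p was below 0.05 over all 29214 probe sets. Array medians lay between 6.89 and 7.03. The difference between the 2 phenylephrine arrays had an SD of 0.251 over probe sets, that between control arrays 0.241 to 0.348, and that between a phenylephrine and a control array 0.613 to 0.696. On the first principal component of all arrays (45.7% of the variance) the controls lay at -72.24, -50.31 and -65.47, the phenylephrine arrays at 33.64 and 35.66, and the after NHD arrays at 15.15 to 37.20, while before NHD arrays ran from -66.50 to 40.85. The phenylephrine arrays were thus placed with the after NHD arrays and away from the controls. Control replicates 1 and 3 also had narrower value distributions (array SD 2.245 and 2.252) than control replicate 2 (2.317) and the phenylephrine arrays (2.293 and 2.319).

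In this comparison 5471 probe sets (18.7%) were called, 2496 higher and 2975 lower with phenylephrine. Among 14506 genes, each read by its brightest probe set, 1694 (11.7%) were higher and 1733 (11.9%) lower. The median difference over all genes was -0.06, and the median absolute difference 0.32. With phenylephrine replicate 1 left out 1621 probe sets were called, without phenylephrine replicate 2 1810, without control replicate 1 3316 and without control replicate 3 3514, and in a fit of only these 5 arrays 9072, so that every count below depends on which arrays set the spread. Against after NHD plasma 286 probe sets were called (0.979%), 141 higher (0.483%) and 145 lower (0.496%), which is 1.35% of genes. Against before NHD plasma 1268 were called (4.34%), 579 higher (1.98%) and 689 lower (2.36%), which is 5.77% of genes. These 3 comparisons use the same 2 phenylephrine arrays.

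Markers of ventricular myocytes were checked first. The 12 cardiomyocyte markers had mean levels of 12.38 to 12.42 on the control arrays and 12.77 to 12.78 on the phenylephrine arrays, high in both groups. The calcium release channel Ryr2 (log2 difference 1.24 ± 0.37), the myosin-binding protein Mybpc3 (1.26 ± 0.24) and Myh7 (0.53 ± 0.12) were higher, and none of the 12 was lower. Of all genes 11.7% were higher and 11.9% lower. Cardiac troponin T, Tnnt2, had 13.54, 13.49 and 13.55 on the control arrays and 13.52 and 13.48 with phenylephrine. Both groups thus expressed the markers of the labelled cell type, and without phenylephrine replicate 1 or 2 there were 2 and 1 calls in this list.

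The 16 fibroblast markers had mean levels of 8.55 to 8.66 with control plasma and 9.88 to 10.13 with phenylephrine, with a median difference of 1.23. A single member was called in the fit of all arrays, but 15 were higher in a fit of only the 5 arrays compared, 13 with replicate number blocked and 6 when the before NHD group was left out. The 1 call was S100a4, a calcium-binding protein of motile mesenchymal cells, at 8.68, 8.48 and 8.47 against 10.40 and 10.36 (1.84 ± 0.31, adjusted p = 0.00132). Col1a1, a chain of type I collagen, had 9.35, 9.39 and 9.48 against 11.96 and 11.68 (2.41 ± 0.89, adjusted p = 0.0682), and periostin, Postn, 8.35, 8.88 and 8.60 against 11.80 and 11.48 (3.03 ± 1.13, adjusted p = 0.072). The arrays of the 2 groups did not overlap for either gene, yet the uremic plasma arrays, whose spread enters the standard error, ranged from 8.48 to 11.47 for Col1a1 and from 7.01 to 10.96 for Postn. Fibroblast markers on the after NHD arrays had mean levels of 7.75 to 9.72. In such cultures more fibroblasts and more RNA of these genes per fibroblast cannot be told apart.

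Among 8 markers of epicardium and mesothelium 5 were higher, beside 11.7% of all genes. The keratin Krt18 rose most, from 7.79, 8.11 and 7.79 with control plasma to 11.26 and 10.95 (3.21 ± 0.28, adjusted p = 1.38e-05). Its level was also above that after NHD, where the 6 arrays ran from 9.23 to 9.58 (1.69 ± 0.25, adjusted p = 0.00366), and above every before NHD array, the highest of which was 9.11. Of its other probe sets, 1 differed by 2.77 (adjusted p = 3.92e-05) and 1 by 0.34 (adjusted p = 0.151). The retinoic acid-producing enzyme Aldh1a2 rose by 1.49 ± 0.30, Krt8 by 1.01 ± 0.22 and Krt19 by 0.87 ± 0.22. The mean level of the 8 markers was 6.97 to 7.06 in controls and 8.01 to 8.25 with phenylephrine. Without phenylephrine replicate 1 a single marker passed and without phenylephrine replicate 2 3, Krt18 in both cases.

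None of 15 leukocyte and none of 8 neural markers was called, beside 23.6% of all genes called in either direction. Lyz2, a lysozyme of macrophages, had 6.09, 6.71 and 6.26 against 7.79 and 7.87 (1.48 ± 0.54, adjusted p = 0.0673), and mean levels of the leukocyte list were 6.05 to 6.14 against 6.32 to 6.44. In the endothelial list Cdh5 (0.51 ± 0.11) and the VEGF receptor Kdr (1.89 ± 0.63) were called of 13, with mean levels of 6.84 to 6.89 against 7.24 to 7.34. Of 12 smooth muscle markers Cspg4 (1.40 ± 0.27) and the G protein regulator Rgs5 were higher and smooth muscle actin, Acta2, was lower, at mean levels of 9.72 to 9.84 against 10.02 to 10.08. The erythroid list had 1 lower member of 5, the anion exchanger Slc4a1 (-0.48 ± 0.13), and mean levels of 6.46 to 6.70 against 6.38 to 6.51. Without phenylephrine replicate 2 no endothelial or smooth muscle marker was higher.

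Of 33 hypertrophy markers measured, 7 were higher and 3 lower, beside 11.7% and 11.9% of all genes. Differences ran from -2.72 (Gdf15) to 2.90 (Igf1), with a median of 0.24. In a fit of only the 5 arrays compared 13 were higher and 5 lower. Neither natriuretic peptide passed. Nppa, atrial natriuretic peptide, had 13.79, 13.79 and 13.80 with control plasma and 13.92 and 13.93 with phenylephrine. The phenylephrine arrays lay above every control array, by 0.13 ± 0.09 (adjusted p = 0.322, 95% interval -0.06 to 0.32), close to the highest value of the whole table, 14.29. Nppb, brain natriuretic peptide, had 13.28, 12.81 and 13.33 against 13.55 and 13.63 (0.45 ± 0.30, adjusted p = 0.31, interval -0.18 to 1.08), again without overlap.

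The actins of the fetal programme were not higher. Acta1 had 13.27, 13.02 and 13.28 with control plasma and 12.52 and 12.86 with phenylephrine, lower on both phenylephrine arrays than on any control array (-0.50 ± 0.30, adjusted p = 0.265, interval -1.13 to 0.14). Acta2 fell from 14.07, 14.00 and 14.08 to 13.64 and 13.66 (-0.40 ± 0.12, adjusted p = 0.0263). Cardiac actin, Actc1, had 14.02, 13.96 and 14.11 against 13.94 and 13.95 (-0.08 ± 0.09, adjusted p = 0.573). The Acta2 call was lost without either phenylephrine array and without control replicate 1 or 3.

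Myosin heavy chains are the other classical readout, in which slow Myh7 rises over fast Myh6. Myh7 rose from 12.68, 12.71 and 12.62 to 13.14 and 13.26, a factor of 1.44 (0.53 ± 0.12, adjusted p = 0.00677), and its groups did not overlap. The call was lost without phenylephrine replicate 2. Myh6 had 12.13, 12.11 and 12.18 with control plasma and 12.56 and 12.14 with phenylephrine (0.21 ± 0.18, adjusted p = 0.458), with phenylephrine replicate 2 inside the control range. Set beside uremic plasma, Myh6 with phenylephrine was at the low end, since after NHD arrays ran from 12.62 to 13.21 (difference -0.63 ± 0.16, adjusted p = 0.0853).

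**Figure D1:**
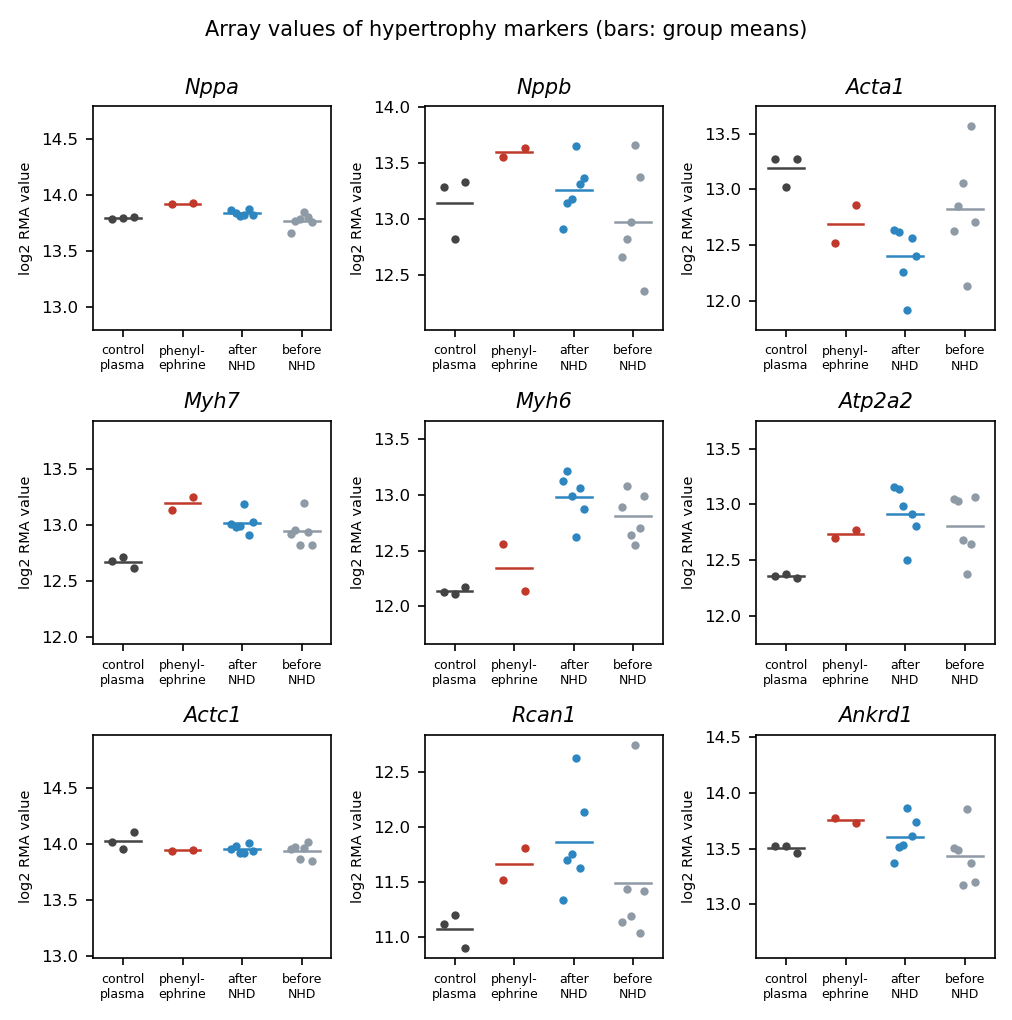
Log2 values of 9 hypertrophy markers on every array, by group, with the group mean as a bar; each vertical axis spans at least 2 log2 units and does not start at 0. Of these 9, Myh7 alone passed against control plasma. The Nppa, Nppb, Ankrd1, Atp2a2 and Rcan1 points with phenylephrine also lie above the control points by less than 1 unit. Those of Acta1 and Actc1 lie below the control points.

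Stretch and Z-disc genes ranged in their differences from -0.34 to 2.46. Csrp3, the muscle LIM protein of the Z-disc, had 10.58, 10.67 and 10.67 with control plasma and 13.18 and 13.01 with phenylephrine, a factor of 5.49 (2.46 ± 0.52, adjusted p = 0.00459). The after NHD arrays ran from 12.42 to 13.41, so that phenylephrine lay within them and all controls below. Nrap, which anchors thin filaments to the membrane, rose from 11.08, 10.90 and 10.96 to 12.03 and 12.18 (1.12 ± 0.19, adjusted p = 0.00117) and also stood above before NHD plasma (0.71 ± 0.17, adjusted p = 0.0231). Xirp2, an actin-binding repeat protein, had 10.87, 10.52 and 10.82 against 12.64 and 12.35 (1.75 ± 0.67) and did not pass (adjusted p = 0.0786). The stretch-responsive Ankrd1 had 13.52, 13.53 and 13.46 against 13.77 and 13.73 (0.25 ± 0.17, adjusted p = 0.339). Myoz2 was called with a difference of 0.38 ± 0.12 and the small heat shock protein Cryab with -0.30 ± 0.09, and both calls were lost whenever a single phenylephrine or control array was left out.

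Atrial and calcium pump genes followed. Sarcolipin, Sln, an inhibitor of the calcium pump, rose from 7.64, 7.23 and 7.45 to 9.51 and 8.96 (1.80 ± 0.41, adjusted p = 0.0068), and the atrial light chain Myl7 from 9.62, 9.64 and 9.80 to 10.99 and 11.10 (1.36 ± 0.42, adjusted p = 0.0328). The pump itself, Atp2a2, whose loss accompanies hypertrophy in the adult heart, had 12.36, 12.38 and 12.34 against 12.70 and 12.77 (0.38 ± 0.21, adjusted p = 0.221). It was not lower on any phenylephrine array than on a control array. Rcan1, the calcineurin target that restrains calcineurin, had 11.12, 11.20 and 10.90 against 11.52 and 11.80 (0.59 ± 0.41, adjusted p = 0.335).

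Growth and stress factors diverged. Igf1 rose from 7.33, 7.34 and 7.25 to 10.39 and 10.02, a factor of 7.46 (2.90 ± 0.77, adjusted p = 0.0156), while the stress cytokine Gdf15 fell from 12.82, 12.70 and 12.74 to 9.81 and 10.27 (-2.72 ± 0.79, adjusted p = 0.0251). For Gdf15 the after NHD arrays lay lower still, at 8.85 to 9.50. Endothelin, Edn1, had 8.79, 8.85 and 8.84 against 9.45 and 8.68 (0.24 ± 1.14, adjusted p = 0.908), with a spread among uremic plasma arrays from 6.94 to 11.75. Igf1 lost its call without either phenylephrine array. Over the whole list, 2 members were called higher without phenylephrine replicate 1 and 3 without phenylephrine replicate 2, against 7 with all arrays, and none lower without either.

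In the adrenergic and Gq pathway 19 of 40 measured genes were higher and 0 lower, beside 11.7% and 11.9% of all genes. The median difference was 0.60, beside -0.06 over all genes. Without phenylephrine replicate 1 the count was 8, without phenylephrine replicate 2 6, without control replicates 1 or 3 10 each, and with array SD as a covariate 13.

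Of 8 receptors 1 was higher, near the 11.7% of all genes. Adra1a, the alpha1A receptor, had 7.57, 7.83 and 7.36 with control plasma and 10.14 and 10.18 with phenylephrine, a factor of 5.98 (2.58 ± 0.51, adjusted p = 0.00287). Both phenylephrine arrays stood above every control array and within the after NHD range of 9.72 to 10.23. Adra1b, the alpha1B receptor, had 6.41, 6.56 and 6.49 against 8.15 and 7.92 (1.55 ± 0.59, adjusted p = 0.0765), also without overlap, whereas after NHD arrays ran from 7.49 to 8.99. Adra1d differed by 0.06 ± 0.32, the beta1 receptor Adrb1 by -0.02 ± 0.21, and the remaining 4 receptors by -0.34 to -0.23, none of them called.

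Downstream of the receptors, 5 of 11 G proteins and phospholipases were higher, beside 11.7% of all genes. Gnaq, the alpha subunit of Gq, had 8.18, 9.09 and 8.55 with control plasma and 9.36 and 9.38 with phenylephrine (0.77 ± 0.25, adjusted p = 0.0437), and its relative Gna11 8.91, 9.12 and 8.89 against 9.57 and 9.45 (0.53 ± 0.16, adjusted p = 0.0264). The phospholipases Plcb3 (0.60 ± 0.17) and Plce1 (1.19 ± 0.37) and the inhibitory subunit Gnai2 (0.73 ± 0.21) were higher as well. Plcb1 had 5.67, 5.47 and 5.64 against 5.73 and 5.58, with a difference of 0.06 ± 0.12. All 5 calls were lost without either phenylephrine array and without control replicate 1 or 3.

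Calcium release and kinase genes were higher in 7 of 10 cases, beside 11.7% of all genes. All 3 inositol trisphosphate receptors were higher: Itpr1 rose from 7.81, 8.24 and 7.90 to 8.82 and 8.80 (0.83 ± 0.17, adjusted p = 0.00395), Itpr3 from 6.50, 6.68 and 6.70 to 7.32 and 7.30 (0.68 ± 0.13, adjusted p = 0.0021), and Itpr2 by 0.83 ± 0.28 (adjusted p = 0.0478). Among protein kinase C genes, Prkce rose by 1.14 ± 0.29, Prkcb by 0.76 ± 0.16 and Prkcd by 0.63 ± 0.14, while Prkca had 10.02, 9.92 and 9.95 against 9.94 and 9.97. Prkd1, a kinase activated by protein kinase C, rose by 0.95 ± 0.32 (adjusted p = 0.0455). Prkcb and Itpr3 were also higher than with before NHD plasma (adjusted p = 0.0287 and 0.00684). Against control plasma the Itpr2 call was lost without any single one of the 5 arrays. The Prkce and Prkd1 calls were lost without either phenylephrine array, that of Prkcb without phenylephrine replicate 1 and that of Prkcd without phenylephrine replicate 2.

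Genes that switch such receptors off were higher in 6 of 11 cases, beside 11.7% of all genes. Arrb1, an arrestin that uncouples receptors, rose from 7.71, 8.46 and 7.89 to 10.17 and 10.20 (2.16 ± 0.40, adjusted p = 0.00199). Its relative Arrb2 had 8.29, 8.17 and 8.05 against 7.77 and 7.47 (-0.55 ± 0.19, adjusted p = 0.0511). The receptor kinases Grk6 (1.28 ± 0.23) and Grk5 (0.90 ± 0.28) were higher. Regulators of G protein signalling, which shorten the signal of Gq and Gi, were higher for Rgs5 (1.65 ± 0.35), Rgs16 (1.07 ± 0.35) and Rgs3 (0.53 ± 0.13). Rgs2 had 8.60, 8.30 and 8.55 against 9.03 and 9.14 (0.60 ± 0.27, adjusted p = 0.128). Rgs16 lost its call without any single one of the 5 arrays, and Grk5 without either phenylephrine array and without control replicate 1 or 3. The call of Rgs3 was lost without phenylephrine replicate 2, while those of Arrb1 and Grk6 held in every alternative fit.

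Rgs5 stood apart from the rest of the list in 1 respect. It had 7.06, 7.20 and 6.91 with control plasma, 8.60 and 8.81 with phenylephrine, 6.38 to 7.46 after NHD and 6.43 to 7.77 before NHD. No other array reached the phenylephrine arrays, and it was the single member called against after NHD plasma (1.99 ± 0.31, adjusted p = 0.00556), where 0.662% of all genes were called higher. Rgs5 also marks pericytes, and the mean level of the smooth muscle list it belongs to is given above. The call against control plasma was lost without phenylephrine replicate 2.

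**Figure D2:**
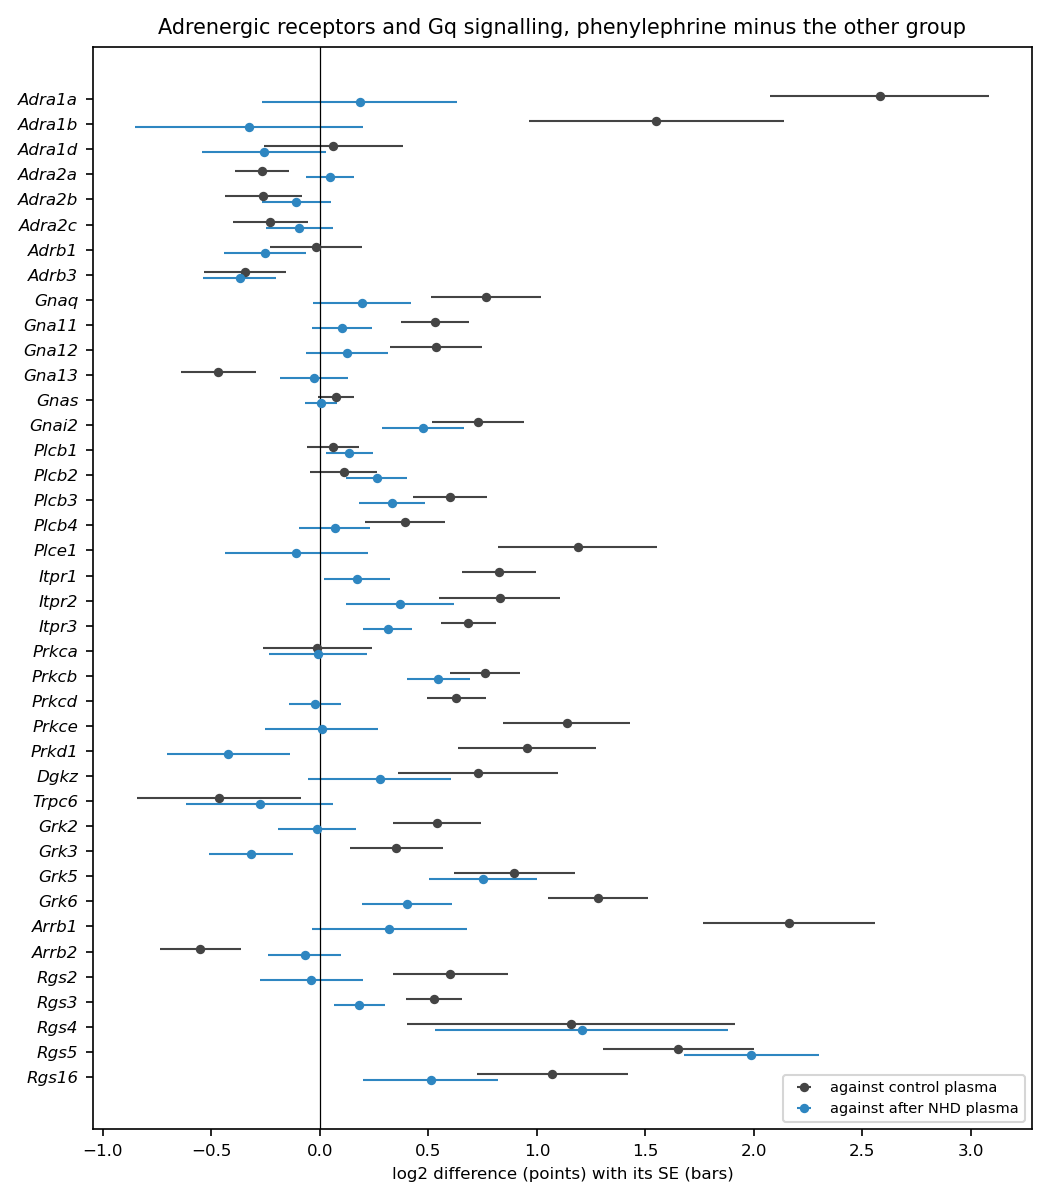
Log2 differences of the 40 adrenergic and Gq genes, phenylephrine minus control plasma and phenylephrine minus after NHD plasma; points are differences and bars 1 SE of the fit. Most points against control plasma lie right of 0, with Adra1a and Arrb1 farthest, while against after NHD plasma most lie near 0 and Rgs5 is the exception.

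Calcium-dependent signalling next to this pathway gave 5 higher and 1 lower of 20, beside 11.7% and 11.9% of all genes. Calcineurin subunits split, since the catalytic Ppp3cb rose from 8.21, 8.84 and 8.30 to 9.98 and 10.00 (1.54 ± 0.31, adjusted p = 0.00349) and Ppp3cc by 0.66 ± 0.14, while the regulatory Ppp3r1 fell from 10.24, 10.17 and 10.20 to 9.47 and 9.49 (-0.72 ± 0.14, adjusted p = 0.00265). Calm2, a calmodulin gene, rose by 0.98 ± 0.17. None of 4 NFAT genes was called. Of 20 cardiac transcription regulators, the repressors Hdac5 (0.89 ± 0.16), Hdac7 (0.88 ± 0.25) and Hopx (1.62 ± 0.44) were among the 4 higher, and Hand2 (-0.67 ± 0.19) was the single lower one. Without phenylephrine replicate 1 the 5 higher calls in the first list became 2 and the 4 in the second 1, and without phenylephrine replicate 2 3 and 1.

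Contractile genes were higher in 8 of 22 cases and lower in 0, beside 11.7% and 11.9% of all genes. Mybpc3 had 10.67, 10.80 and 10.56 with control plasma and 11.88 and 11.99 with phenylephrine (adjusted p = 0.00273), and the troponin Tnnc1 11.73, 11.56 and 11.65 against 12.52 and 12.52 (0.88 ± 0.23, adjusted p = 0.0146). Both groups were separate for both genes. Calcium handling and channel genes were higher in 9 of 26 cases, with S100a1, a calcium sensor of the calcium release channel, at 9.04, 8.95 and 9.07 against 11.32 and 11.37 (2.32 ± 0.44, adjusted p = 0.00246). The calcium channel subunit Cacnb2 rose by 1.13 ± 0.26 and the pacemaker channel Hcn4 by 0.81 ± 0.21. S100a1 was also higher than with before NHD plasma (1.51 ± 0.40, adjusted p = 0.0393). Without either phenylephrine array 2 contractile genes passed, and 1 or 2 of the calcium and channel genes, S100a1 among them.

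Immediate early genes, which respond to receptor activation within minutes to hours, gave 8 higher and 4 lower of 33. Over all genes the shares were 11.7% and 11.9%. Egr2, a zinc finger factor, had 6.69, 6.58 and 6.71 with control plasma and 8.18 and 8.15 with phenylephrine, a factor of 2.84 (SE 0.20 on the log2 scale, adjusted p = 0.000447). Egr3 rose from 6.76, 6.48 and 6.63 to 7.34 and 7.33 (0.71 ± 0.11, adjusted p = 0.000769), and Ier3, a survival factor downstream of ERK, from 10.13, 10.32 and 10.20 to 11.69 and 11.51 (1.38 ± 0.20, adjusted p = 0.000614). All 3 were higher than in both uremic groups too. After NHD arrays reached at most 7.09 for Egr2, 6.86 for Egr3 and 10.56 for Ier3, and before NHD arrays at most 7.15, 6.76 and 10.75. Against after NHD plasma the adjusted p was 0.00131, 0.00911 and 0.00281. The 8 higher calls became 4 without either phenylephrine array, and these 3 kept theirs.

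The same list held decreases. Klf10, a factor induced by TGF-beta, fell from 11.98, 11.80 and 11.95 to 9.59 and 9.00 (-2.62 ± 0.52, adjusted p = 0.00313), with the after NHD arrays at 9.34 to 11.35. Klf10 was not called without phenylephrine replicate 2, where none of the list was lower. None of the 7 AP-1 genes was called, with a median difference of -0.26. Targets of serum response factor and YAP were higher in 2 of 21 cases, below the share of all genes. Vinculin, Vcl, rose from 10.77, 10.65 and 10.67 to 11.79 and 12.04 (1.22 ± 0.18, adjusted p = 0.000648) and Myl9 by 0.91 ± 0.30 (adjusted p = 0.0454), while Tagln had 12.38, 12.04 and 12.36 against 11.53 and 11.03 (-0.98 ± 0.42, adjusted p = 0.119).

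The cell cycle list had 35 higher and 7 lower members of 68 measured, beside 11.7% and 11.9% of all genes, and 19 higher and 0 lower of the 32 mitosis genes (median difference 1.86). Neonatal ventricular myocytes in culture divide little, and the fibroblasts that accompany them divide more readily. Top2a, the topoisomerase that untangles sister chromatids, had 6.08, 5.92 and 5.83 with control plasma and 10.47 and 11.06 with phenylephrine, a factor of 28.2 (4.82 ± 0.77, adjusted p = 0.000889). The kinesin Kif20a rose from 6.29, 5.63 and 5.88 to 10.15 and 10.54 (4.41 ± 0.68, adjusted p = 0.000737), and cyclin B2, Ccnb2, from 7.16, 7.38 and 7.38 to 10.84 and 11.15 (3.69 ± 0.52, adjusted p = 0.000518). None of these groups overlapped.

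After NHD arrays carried much of the same level, 9.77 to 10.57 for Top2a and 9.25 to 10.79 for Ccnb2. No mitosis gene was called against them, beside 1.35% of all genes. Of the 32, 22 were called higher than with before NHD plasma, where 2.63% of all genes were. The latter count was 0 with only the arrays compared, 3 without phenylephrine replicate 1 and 0 without phenylephrine replicate 2. Other mitotic genes among the largest increases were the kinase Pbk (3.72 ± 0.62) and cyclin A2, Ccna2 (3.52 ± 0.70). Aurkb, the kinase of the chromosomal passenger complex, rose by 2.33 ± 0.33 and the kinesin Kif2c by 2.74 ± 0.38. Among 23 replication genes 11 were higher and 4 lower, beside 11.7% and 11.9% of all genes. Rrm2, a subunit of ribonucleotide reductase, had 7.69, 8.12 and 7.72 against 11.47 and 11.91 (3.85 ± 0.60, adjusted p = 0.000812).

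Regulators of entry into the cycle split as 5 higher and 3 lower of 13, beside 11.7% and 11.9% of all genes. Cyclin D2, Ccnd2, rose from 11.51, 11.54 and 11.42 to 12.63 and 12.78 (1.22 ± 0.16, adjusted p = 0.000461), and it was higher than with before NHD plasma (0.82 ± 0.15, adjusted p = 0.00551). Of the 35 higher members of the cell cycle list 29 were called again without phenylephrine replicate 1 and 23 without phenylephrine replicate 2, and of the 7 lower members 2 in either case. Fibroblast markers had median differences of 1.23 over control plasma and 1.15 over after NHD plasma, beside 1.86 and 0.44 for the mitosis genes, and their part in the result was not tested.

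Promoters of mitotic genes often hold a CCAAT box and the cell cycle homology element, whose core reads TTTGAA. The 250 bases before the start site were taken from RefSeq (assembly GRCr8) for 11950 of the measured genes and searched on both strands. CCAAT was present in 19 of 25 mitosis genes (76%) and in 35.6% of all 11950, and TTTGAA in 11 of 25 (44%) and in 13.9% of all. Both motifs can match more than 1 time in a window, and a match is no evidence of binding. The 3 called mitosis genes of smallest adjusted p that hold both motifs are shown to let the spacing be read, 5′ to 3′ in the direction of the gene, with matches to either motif on either strand in capitals. Ccnb2 lies at chr8:79981659-79981908, Top2a at chr10:84473094-84473343 and Kif23 at chr8:71320585-71320834, all on the minus strand.
Ccnb2: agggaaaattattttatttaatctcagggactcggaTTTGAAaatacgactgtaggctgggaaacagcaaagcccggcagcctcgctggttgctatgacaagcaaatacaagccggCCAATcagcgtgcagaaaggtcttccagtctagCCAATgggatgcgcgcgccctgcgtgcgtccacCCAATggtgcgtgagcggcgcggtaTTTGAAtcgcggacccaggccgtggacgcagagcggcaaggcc
Top2a: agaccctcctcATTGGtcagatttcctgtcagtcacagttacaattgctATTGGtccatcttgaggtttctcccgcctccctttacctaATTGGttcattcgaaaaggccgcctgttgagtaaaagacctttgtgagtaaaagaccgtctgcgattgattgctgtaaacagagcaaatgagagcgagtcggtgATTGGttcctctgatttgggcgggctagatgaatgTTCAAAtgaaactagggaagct
Kif23: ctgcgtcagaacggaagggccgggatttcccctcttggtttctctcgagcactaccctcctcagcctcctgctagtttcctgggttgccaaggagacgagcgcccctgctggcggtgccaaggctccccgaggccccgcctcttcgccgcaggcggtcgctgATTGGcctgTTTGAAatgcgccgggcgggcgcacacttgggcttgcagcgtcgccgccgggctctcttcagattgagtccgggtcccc

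Ccnb2 held 3 CCAAT matches, beginning 134, 101 and 68 bases before the start, and TTTGAA at 214 and at 43 bases. Top2a held 4 CCAAT matches in reverse orientation, beginning 239, 201, 161 and 57 bases before the start, and the reverse of TTTGAA at 22 bases. In Kif23, a kinesin of the central spindle, both motifs lay close together, at 88 and 79 bases. Its expression rose by 2.62 (adjusted p = 0.00156).

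Genes of the p53 response and of apoptosis were lower in 18 of 42 cases and higher in 0. Of all genes 11.9% were lower and 11.7% higher. The list had a median difference of -0.61. Cdkn1a, the kinase inhibitor p21 that p53 induces, fell from 13.39, 13.42 and 13.25 with control plasma to 11.26 and 11.51, a factor of 3.9 (-1.97 ± 0.29, adjusted p = 0.000636). Cyclin G1, Ccng1, fell from 13.91, 13.82 and 13.92 to 12.78 and 12.78 (-1.10 ± 0.16, adjusted p = 0.000645), and Phlda3, which restrains AKT, from 12.37, 12.43 and 12.34 to 11.03 and 10.87 (-1.43 ± 0.25, adjusted p = 0.00135). The groups did not overlap for any of the 3.

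The inhibitor of apoptosis Birc2 fell most in this list, from 9.21, 9.39 and 9.14 to 6.77 and 7.03 (-2.35 ± 0.26, adjusted p = 0.000132), and lay below every before NHD array (7.95 to 8.96) and every after NHD array (7.49 to 8.19). Cdkn1a, Ccng1, Phlda3 and Birc2 were lower than with before NHD plasma as well, with adjusted p of 0.0101, 0.00547, 0.0247 and 0.00175. None of the 42 was called against after NHD plasma, where 1.35% of all genes were and the list's median difference was 0.04. Of the 18 lower members 12 were called again without phenylephrine replicate 1 and 13 without phenylephrine replicate 2. With only the 5 arrays compared 24 were lower and 7 higher.

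In the list of 37 NF-kB and cytokine genes 6 were lower and 4 higher, beside 11.9% and 11.7% of all genes, and with only the 5 arrays compared 8 and 11. Nfkbia, the inhibitor that holds NF-kB in the cytoplasm and is itself an NF-kB target, fell from 12.05, 12.03 and 12.07 to 9.24 and 9.31 (-2.78 ± 0.55, adjusted p = 0.00305). Nfkb2, a subunit precursor, fell from 11.18, 11.02 and 11.14 to 8.17 and 8.41 (-2.83 ± 0.57, adjusted p = 0.0033), and Birc3 by 1.73 ± 0.34 on the log2 scale. The before NHD arrays spanned both levels of Nfkbia, from 9.62 to 12.20. The 6 lower calls were 3 without either phenylephrine array.

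**Figure D3:**
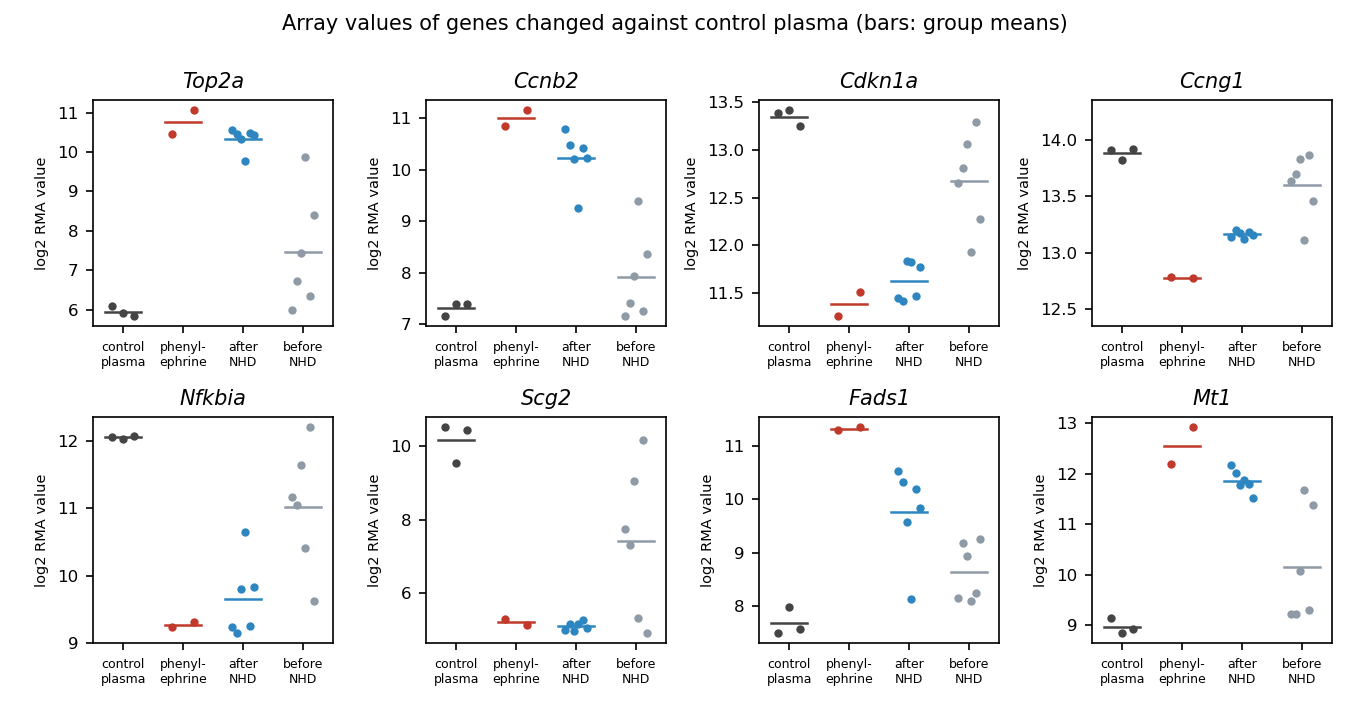
Log2 values of 8 genes called against control plasma, on every array, by group, with the group mean as a bar; vertical axes do not start at 0. For Top2a, Ccnb2, Cdkn1a, Ccng1, Nfkbia, Scg2, Fads1 and Mt1 the control arrays lie on 1 side and the phenylephrine arrays on the other. Before NHD arrays spread widely, down to 4.90 for Scg2, below both phenylephrine arrays, and up to 12.20 for Nfkbia, above all controls.

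Interferon-stimulated genes are the antiviral programme switched on by STAT and IRF factors. They were higher in 13 of 27 cases and lower in 0, beside 11.7% and 11.9% of all genes. Their median difference was 1.28. With only the 5 arrays compared 22 were higher. Usp18, the protease that removes ISG15 and dampens the interferon receptor, gave the largest increase of all named genes, from 4.68, 5.63 and 5.03 with control plasma to 9.61 and 10.84, a factor of 34.6 (5.11 ± 1.30, adjusted p = 0.0125). The call of Usp18 was lost without phenylephrine replicate 1 or 2 (highest adjusted p = 0.12), and its log2 difference ran from 4.02 to 5.73 over the alternative fits. The GTPase Mx2 rose from 5.34, 5.40 and 5.24 to 9.13 and 10.12 (4.30 ± 0.94, adjusted p = 0.00532), and Mx1 from 4.73, 4.77 and 5.00 to 7.02 and 7.47 (2.41 ± 0.37, adjusted p = 0.000791). On each of these the phenylephrine arrays were above all controls, and phenylephrine replicate 2 was the higher of the pair.

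Part of this list was also higher than in both uremic groups. Against after NHD plasma 6 of the 27 were called higher, where 0.662% of all genes were, and against before NHD plasma 6, where 2.63% were. Oasl, an oligoadenylate synthetase relative, had 6.80, 6.96 and 6.81 with control plasma, 8.92 and 9.34 with phenylephrine, 6.40 to 7.18 after NHD and 6.21 to 7.54 before NHD. It thus differed from after NHD plasma by 2.32 ± 0.28 (adjusted p = 0.000704) and from before NHD plasma by 2.37 ± 0.28 (adjusted p = 0.00037). Ifit3, which binds viral RNA complexes, had 6.09, 6.53 and 6.14 against 7.93 and 8.35 (1.88 ± 0.32, adjusted p = 0.00128), and the antiviral enzyme Rsad2 5.38, 5.32 and 5.78 against 7.12 and 7.78 (1.96 ± 0.45, adjusted p = 0.00757).

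Before NHD replicate 6 also had raised values of this programme, 10.67 for Usp18, 9.48 for Mx2 and 7.14 for Rsad2. The chemokine Cxcl10, an interferon target kept in the cytokine list, had 9.30, 8.98 and 9.36 with control plasma and 11.28 and 11.12 with phenylephrine (1.98 ± 0.42, adjusted p = 0.00459), and 7.14 to 8.96 after NHD (3.10 ± 0.38, adjusted p = 0.000704). The count of 13 became 6 without phenylephrine replicate 1, 3 without phenylephrine replicate 2, 7 without control replicate 1 or 3 and 8 with array SD as a covariate. Mx1, Oasl and Ifit3 passed in each of these.

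The interferon-stimulated response element is the site of these factors, and its core was searched on both strands as GAAA, any pair of bases and GAAA again, a motif chosen after the values were seen. It was present in 14 of 21 interferon genes with a promoter window (66.7%) and in 3.1% of all 11950. The 3 called members of smallest adjusted p that hold it are shown for the position of the element, 5′ to 3′ in the direction of the gene, with the match, here read on the reverse strand, in capitals. Ifit3 lies at chr1:241527076-241527325 on the plus strand, Rsad2 at chr6:48788121-48788370 and Oasl2 at chr12:47383186-47383435, both on the minus strand.
Ifit3: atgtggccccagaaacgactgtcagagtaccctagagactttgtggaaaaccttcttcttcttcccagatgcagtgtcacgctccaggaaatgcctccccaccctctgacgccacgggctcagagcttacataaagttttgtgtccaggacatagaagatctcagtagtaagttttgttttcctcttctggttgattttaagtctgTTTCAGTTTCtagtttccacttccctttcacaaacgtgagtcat
Rsad2: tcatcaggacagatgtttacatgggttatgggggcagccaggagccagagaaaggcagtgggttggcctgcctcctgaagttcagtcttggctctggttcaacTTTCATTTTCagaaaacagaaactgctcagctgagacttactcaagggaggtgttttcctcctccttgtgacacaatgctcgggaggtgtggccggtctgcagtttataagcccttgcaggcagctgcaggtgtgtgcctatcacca
Oasl2: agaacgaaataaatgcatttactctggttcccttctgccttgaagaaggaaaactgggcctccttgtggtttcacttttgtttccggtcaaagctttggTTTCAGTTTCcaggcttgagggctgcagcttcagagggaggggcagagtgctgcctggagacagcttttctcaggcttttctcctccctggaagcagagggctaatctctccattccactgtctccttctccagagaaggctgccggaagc

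The element spanned the bases 44 to 35 before the start in Ifit3, 147 to 138 in Rsad2 and 151 to 142 in Oasl2. Oasl2, an oligoadenylate synthetase relative, rose by 2.72 (adjusted p = 0.0197). Mx1 and Oasl, which rose as well, held no match to these letters in the window.

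Lipid synthesis genes were higher in 13 of 33 cases and lower in 0, beside 11.7% and 11.9% of all genes. Their median difference was 0.65. Of 17 genes of fatty acid synthesis and the liver X receptor 9 were higher, and of 16 cholesterol genes 4. Fads2, a desaturase of polyunsaturated fatty acids, had 8.37, 8.84 and 8.46 with control plasma and 11.40 and 11.53 with phenylephrine, a factor of 7.5 (2.91 ± 0.22, adjusted p = 3.6e-06). Its neighbour in the pathway, Fads1, rose from 7.49, 7.97 and 7.57 to 11.30 and 11.35 (3.65 ± 0.53, adjusted p = 0.000614). Fatty acid synthase, Fasn, rose by 1.53 ± 0.18 and acetyl-CoA carboxylase, Acaca, by 1.12 ± 0.14.

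Several of these exceeded uremic plasma too. Fads2 was above every after NHD array (9.83 to 10.61; 1.22 ± 0.20, adjusted p = 0.00687) and every before NHD array (9.21 to 9.84; 1.92 ± 0.20, adjusted p = 9.67e-05). The stearoyl-CoA desaturase Scd had 7.41, 6.73 and 7.55 with control plasma, 9.66 and 9.90 with phenylephrine and 6.93 to 8.83 after NHD (1.80 ± 0.36, adjusted p = 0.0211). Abcg1, a liver X receptor target that exports cholesterol, had 7.46, 7.62 and 7.53 against 9.82 and 9.66 (2.20 ± 0.42, adjusted p = 0.00237). The list held 8 higher members without phenylephrine replicate 1 and 7 without phenylephrine replicate 2. Plasma carries lipids, and the labels do not give the plasma content of the phenylephrine cultures. A part of plasma in these values was not tested.

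Glucocorticoid targets and clock genes were the other group on the lower side, with 12 lower and 2 higher of 32 (median difference -0.49). The shares of all genes were 11.9% lower and 11.7% higher. Of 18 glucocorticoid targets 6 were lower, 1 was higher and 11 were not called. Of 14 clock genes 6 were lower, 1 was higher and 7 were not called. The higher target was Dusp1 (0.61, adjusted p = 0.04), and the targets Tsc22d3 (0.16) and Sgk1 (-0.81) were not called. Zbtb16, a zinc finger factor induced by glucocorticoids, had 9.66, 9.93 and 9.63 with control plasma and 7.07 and 7.74 with phenylephrine, a factor of 5.05 (-2.34 ± 0.28, adjusted p = 0.000221). After NHD arrays ran from 8.91 to 9.26 and before NHD arrays from 9.29 to 10.43. Every array labelled with plasma thus lay above both phenylephrine arrays. Per1, a clock gene with a glucocorticoid response, had 10.79, 10.88 and 10.76 against 8.56 and 8.72 (-2.17 ± 0.29, adjusted p = 0.000432), and at least 9.89 on every uremic plasma array.

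Fkbp5, a co-chaperone that restrains the glucocorticoid receptor, fell from 7.78, 8.32 and 7.84 to 7.01 and 7.05 (-0.95 ± 0.23, adjusted p = 0.00847), against 8.01 to 8.67 after NHD and 7.94 to 8.65 before NHD. The clock repressor Cry1 fell by 1.03 ± 0.17 and the clock output factor Tef by 1.09 ± 0.21, both on the log2 scale. In this list 4 genes were lower than after NHD plasma, where 0.689% of all genes were, and 8 lower than before NHD plasma, where 3.14% were. Without phenylephrine replicate 1 the 12 lower calls became 5, and without phenylephrine replicate 2 6, and the call of Fkbp5 was lost in both cases. The palindrome of the glucocorticoid response element, chosen after the values were seen, was found in 0 of 14 promoter windows of the glucocorticoid targets and in 0.343% of all.

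Energy metabolism showed a mixed pattern. Of 52 respiration and TCA cycle genes 9 were higher and 2 lower, beside 11.7% and 11.9% of all genes. The succinyl-CoA ligase subunit Suclg2 rose from 9.35, 9.67 and 9.29 to 11.22 and 11.17 (1.76 ± 0.31, adjusted p = 0.00149), Idh2 by 1.38 ± 0.26 and Pdk3, which switches off pyruvate dehydrogenase, by 1.95 ± 0.36. The complex I subunit Ndufs3 fell from 11.95, 11.95 and 11.84 to 11.19 and 11.29 (-0.67 ± 0.12, adjusted p = 0.002) and was lower than after NHD plasma as well (lowest array 11.73; -0.59 ± 0.11, adjusted p = 0.0159). Without either phenylephrine array 5 of the list were higher and 1, Ndufs3, lower.

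Fatty acid oxidation gave 3 higher and 2 lower of 41, beside 11.7% and 11.9% of all genes. The thiolase Acaa2 fell from 12.58, 12.54 and 12.58 to 11.54 and 11.73 (-0.93 ± 0.23, adjusted p = 0.0116), and was lower than in both uremic groups (adjusted p = 0.0221 after NHD and 0.0113 before NHD). The carnitine carrier Slc25a20 had 11.44, 11.25 and 11.47 against 10.12 and 10.58 (-1.04 ± 0.33, adjusted p = 0.0384). Among 39 glycolysis and hypoxia genes 5 were higher, near the share of all genes, and 0 lower. The lactate exporter Slc16a3 rose from 8.54, 8.63 and 8.47 to 10.57 and 11.29 (2.38 ± 0.37, adjusted p = 0.000769), within the after NHD range of 10.23 to 11.45. Gys1, glycogen synthase, rose by 1.19 ± 0.35. Without either phenylephrine array no oxidation gene and 1 of the glycolysis list, Slc16a3, passed. Acaa2 lost its call without either phenylephrine array, and Slc25a20 without any single one of the 5 arrays.

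Of 39 genes of oxidative stress and metal binding 4 were higher and 5 lower, shares near the 11.7% and 11.9% of all genes. The metallothioneins Mt1 and Mt2A, small zinc-binding proteins, rose, with Mt1 at 9.15, 8.85 and 8.92 against 12.19 and 12.92 (3.58 ± 0.60, adjusted p = 0.00116), and Mt2A at 10.30, 10.17 and 10.45 against 12.75 and 13.22 (2.68 ± 0.63, adjusted p = 0.00814). In the same list the factor Nfe2l2 (NRF2) fell by 1.07 ± 0.18 on the log2 scale and the drug exporter Abcb1b from 11.91, 11.77 and 11.83 to 8.47 and 8.54 (-3.33 ± 0.73, adjusted p = 0.00568). Without phenylephrine replicate 1 or 2 the higher members were 2 and 1, Mt1 in both cases, and the lower ones 1.

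Of 41 unfolded protein and amino acid stress genes 8 were higher and 5 lower, beside 11.7% and 11.9% of all genes. The endoplasmic reticulum chaperone Hyou1 rose from 8.01, 8.02 and 8.03 to 9.41 and 9.29 (1.34 ± 0.19, adjusted p = 0.000546) and exceeded after NHD plasma (0.91 ± 0.17, adjusted p = 0.015), while the cochaperone Dnajb9 fell from 11.08, 10.98 and 11.09 to 9.60 and 9.78 (-1.36 ± 0.31, adjusted p = 0.00664). The subunits of 1 amino acid exchanger went apart, Slc7a5 rising by 0.87 ± 0.21 and Slc3a2 falling by 0.88 ± 0.19, both on the log2 scale. Heat shock genes gave 1 higher and 3 lower of 19, with Hspb1 at -0.67 ± 0.20. Without phenylephrine replicate 1 or 2 the higher stress genes of the first list numbered 1 and 2, with Hyou1 in both, and no heat shock gene passed.

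Translation and growth genes were higher in 4 of 42 cases and lower in 6, shares near the 11.7% and 11.9% of all genes. With only the 5 arrays compared 7 were higher and 21 lower. Called members included Akt1 (1.02 ± 0.23), the translation repressor Eif4ebp1 (1.01 ± 0.24), the initiation factor Eif2s1 (-0.83 ± 0.19) and the kinase Rps6kb2 (-0.90 ± 0.20). FoxO, atrophy and autophagy genes were lower in 5 of 23 cases and higher in 0. Foxo1, the factor that drives atrophy genes, had 9.59, 9.84 and 9.56 against 8.65 and 8.71 (-0.99 ± 0.19, adjusted p = 0.00247), and the ubiquitin ligase Fbxo30 10.10, 10.14 and 9.98 against 8.99 and 8.93 (-1.11 ± 0.24, adjusted p = 0.00552). Atg5 and Atg12, partners in autophagosome formation, fell by 0.65 ± 0.13 and 0.95 ± 0.24 on the log2 scale. No translation and growth gene passed without either phenylephrine array, and the lower autophagy and atrophy genes were 3 and 2, with Foxo1 and Atg5 in both.

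Matrix and TGF-beta genes were higher in 9 of 49 cases and lower in 0, beside 11.7% and 11.9% of all genes. Their median difference was 0.75. With only the 5 arrays compared 30 were higher and 4 lower, and with replicate number blocked 26 and 2. The collagenase Mmp13 had 4.73, 4.71 and 4.70 with control plasma and 6.01 and 6.05 with phenylephrine (1.32 ± 0.18, adjusted p = 0.000457), and its highest value on any uremic plasma array was 5.11. Basement membrane collagen Col4a1 rose by 0.91 ± 0.16 and the matrix glycoprotein Sparc by 0.95 ± 0.22. None of 14 TGF-beta genes was called. These changes stood beside the higher mean level of fibroblast markers given above, whose part was not tested. In the Wnt list 8 of 23 were higher and 2 lower, with beta-catenin, Ctnnb1, at 10.12, 10.53 and 10.22 against 11.61 and 11.55 (1.29 ± 0.21, adjusted p = 0.00117), and the receptor Fzd2 at 8.70, 8.90 and 8.65 against 10.39 and 10.29 (1.59 ± 0.24, adjusted p = 0.000683). Lef1, the nuclear partner of beta-catenin, rose by 0.97 ± 0.15 and also exceeded after NHD plasma (adjusted p = 0.0174). Without either phenylephrine array 2 matrix genes passed, Mmp13 and Col4a1, and 4 or 5 Wnt genes.

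**Figure D4:**
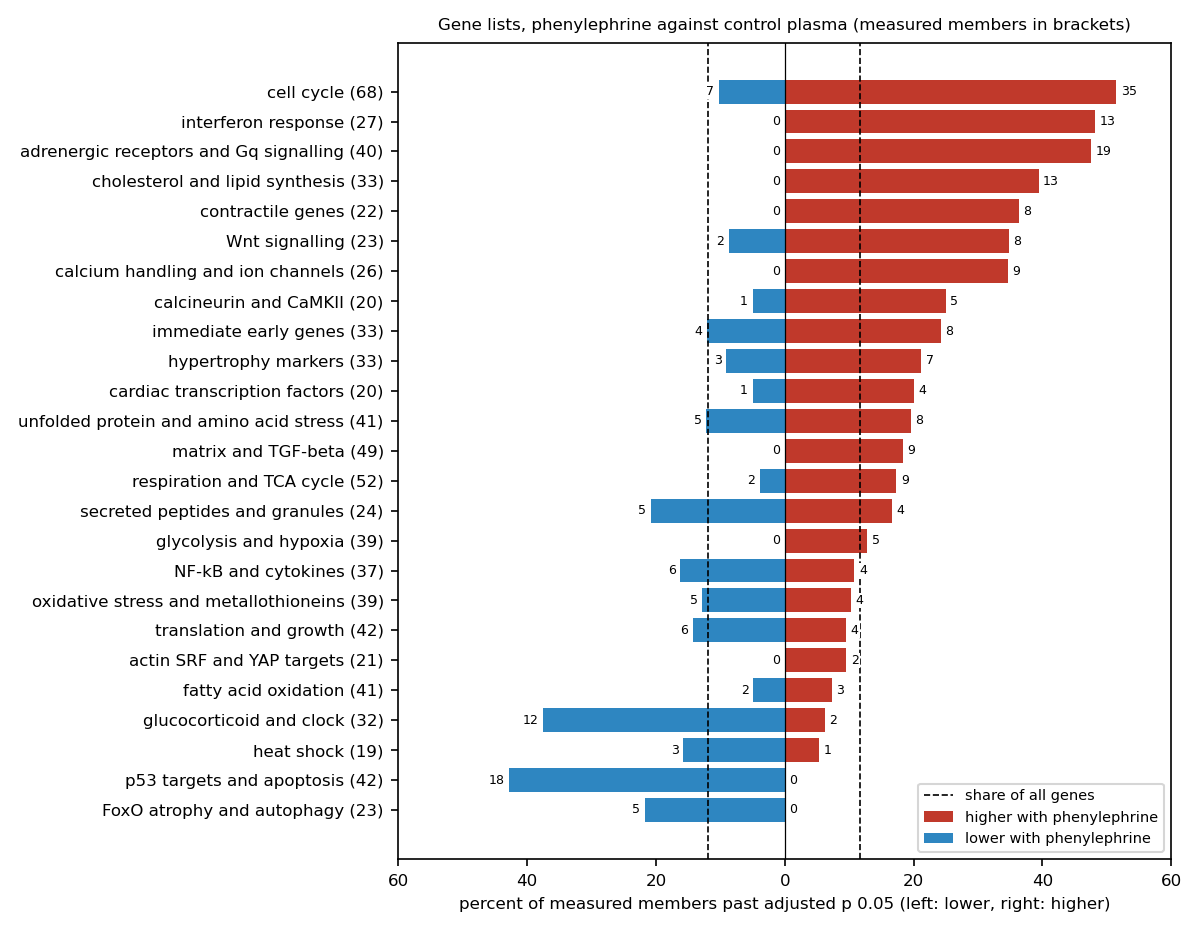
Share of measured members of 25 gene lists called higher (right) and lower (left) with phenylephrine against control plasma, with the number called at each bar and dashed lines at the share of all genes, 11.7% higher and 11.9% lower. Cell cycle, interferon, adrenergic and lipid lists have the longest bars to the right, and p53 and glucocorticoid lists the longest to the left.

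Secretogranin, Scg2, a granule protein of neuroendocrine cells, gave the largest decrease of all named genes. It had 10.52, 9.55 and 10.44 with control plasma and 5.28 and 5.12 with phenylephrine, a factor of 31.3 (-4.97 ± 1.06, adjusted p = 0.00469). Cga, the shared subunit of the glycoprotein hormones, fell from 9.50, 8.80 and 9.08 to 5.65 and 5.40 (-3.60 ± 0.84, adjusted p = 0.00772). After NHD arrays were as low, 4.95 to 5.25 for Scg2 and 5.35 to 5.76 for Cga, and before NHD arrays ran from 4.90 to 10.16 and from 5.54 to 9.45. In the list of 24 secreted and granule genes 4 were higher and 5 lower, beside 11.7% and 11.9% of all genes. Carboxypeptidase E, Cpe, went the other way, from 11.01, 10.79 and 11.03 to 12.29 and 12.38 (1.39 ± 0.29, adjusted p = 0.00454).

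Further large decreases were the vomeronasal receptors Vom1r73 (-3.79 ± 0.68) and Vom1r79 (-3.13 ± 0.62), the zinc finger genes Zfp458 (-3.56 ± 0.51) and Zfp534l1 (-3.08 ± 0.42), and the class I histocompatibility gene RT1-CE5 (-3.19 ± 0.57). These belong to families of similar sequence, so that a probe set may also read relatives of the named gene. Zfp458 had 10.35, 10.17 and 10.30 against 6.55 and 6.87 (adjusted p = 0.00061). Ptprq, a phosphatase of the inner ear, fell by 3.41 ± 0.76, the kinase Mok by 3.23 ± 0.80, the apoptosis suppressor Ddias by 3.21 ± 0.65 and the sperm protein Eqtn by 3.06 ± 0.53, all on the log2 scale. Among the largest increases outside the lists were the mitochondrial peptidase Mipep, at 5.85, 6.09 and 5.63 against 9.50 and 9.51 (3.65 ± 0.82, adjusted p = 0.00624), and the ubiquitin ligase adaptor Asb4, at 5.62, 6.18 and 6.18 against 9.17 and 9.79 (3.49 ± 0.59, adjusted p = 0.0013). Of the secreted and granule list 1 lower member, Scg2, passed without either phenylephrine array. Cga, Ptprq, Abcb1b, Mok and Mipep lost their calls without either phenylephrine array.

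Genes were also sought that set phenylephrine apart from all groups labelled with plasma. They had a call against control and against after NHD plasma and the same direction against before NHD plasma. There were 83 such genes on the higher side (0.572% of 14506) and 82 on the lower side (0.565%). The same rule gave 10 and 1 genes without phenylephrine replicate 1 and 15 and 8 without phenylephrine replicate 2. The 2 calls share the phenylephrine arrays and choose the genes, and the values below describe them.

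On the higher side, the 10 genes with the largest least difference were Oasl, Mx1, RT1-S3, Cxcl10, Ifit3, Scd, Rsad2, Ass1, Serpina9 and Abcg1. Ass1, the argininosuccinate synthase that feeds nitric oxide synthesis with arginine, had the smallest standard errors of the fit among them. Its control arrays had 6.25, 5.91 and 6.31, phenylephrine 8.16 and 7.75, after NHD 6.01 to 6.40 and before NHD 5.96 to 6.25. The differences were 1.80 ± 0.15, 1.75 ± 0.14 and 1.84 ± 0.14 in that order. RT1-S3, a class I histocompatibility gene, had 7.08, 6.92 and 7.16 against 8.94 and 9.44, and the serpin Serpina9 5.54, 5.69 and 5.59 against 7.67 and 6.97. RT1-S3 lost its call against control plasma without either phenylephrine array. Serpina9 and Cxcl10 lost theirs without phenylephrine replicate 1, and Rsad2 without phenylephrine replicate 2.

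On the lower side stood Zbtb16, Per1, Fitm2, Mtif2, Mrpl47, Cend1, Tmem116, Ndufaf4, Chordc1 and Fkbp5. Of these, 3 serve mitochondria, and the share of such genes among all genes was not counted. The respiration and TCA cycle list had 9 higher and 2 lower of 52 against control plasma. The mitochondrial initiation factor Mtif2 had 9.76, 9.86 and 9.78 with control plasma, 7.99 and 8.32 with phenylephrine, 9.34 to 9.61 after NHD and 9.47 to 10.05 before NHD. The ribosomal protein Mrpl47 had 11.62, 11.61 and 11.57 against 9.95 and 10.33, and the complex I assembly factor Ndufaf4 10.36, 10.56 and 10.40 against 9.26 and 9.53. Fitm2, which forms lipid droplets, had 10.71, 11.18 and 10.76 against 9.43 and 9.63, and at least 10.74 on every uremic plasma array. Cend1, a neuronal cell cycle exit protein, had 8.34, 8.54 and 8.12 against 7.11 and 7.18. The HSP90 partner Chordc1 had 11.47, 11.30 and 11.46 against 10.29 and 10.23. Fitm2, Cend1 and Fkbp5 lost their calls against control plasma without either phenylephrine array, and Tmem116 and Ndufaf4 without phenylephrine replicate 1.

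**Figure D5:**
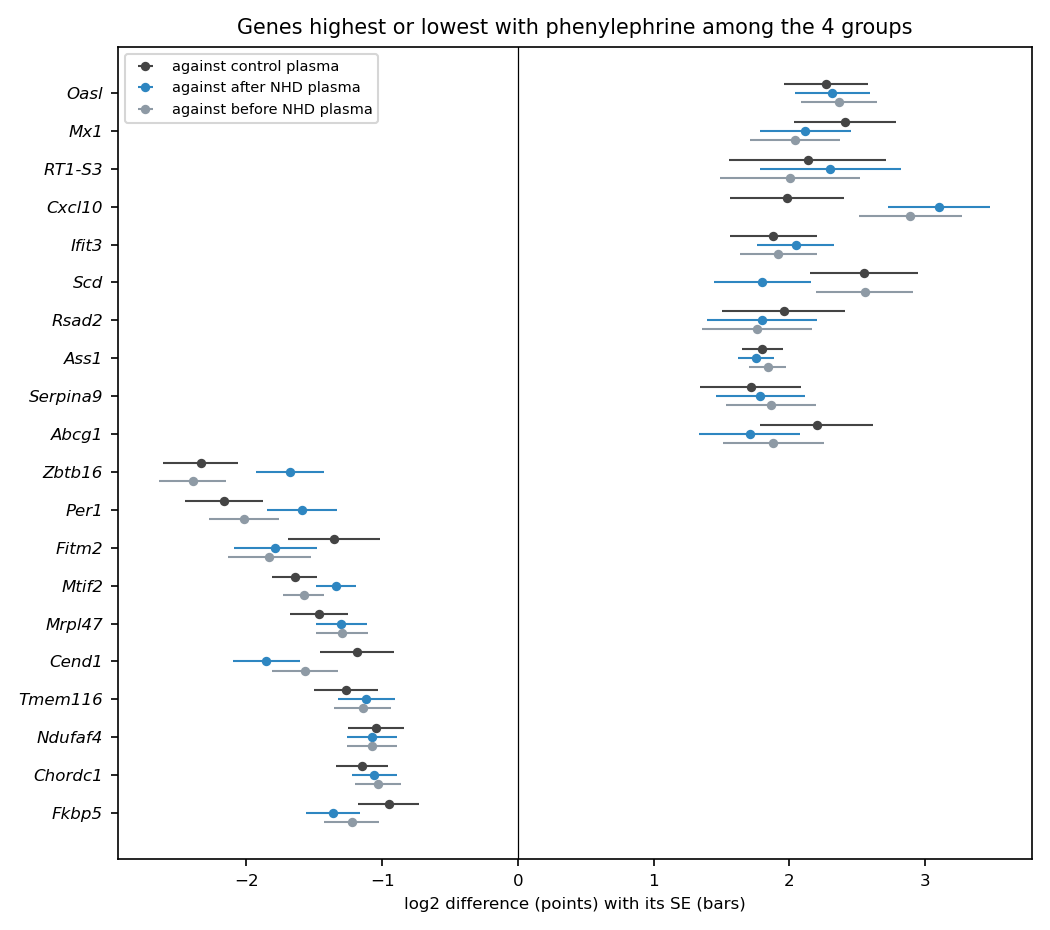
Log2 differences of the 20 genes highest or lowest with phenylephrine, against control plasma, after NHD plasma and before NHD plasma; points are differences and bars 1 SE of the fit. For each gene the 3 points lie on the same side of 0, as the choice of genes requires, and Ass1 and Mtif2 have the narrowest bars.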

How the data were processed

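RNA of each culture was read on 1 Affymetrix array with biotin label, and grouping followed the sample titles. The authors deposited log2 expression values made with RMA, per the submitters' processing notes, which makes the arrays' distributions alike and compresses differences near the floor and the ceiling. The software version is not given in the sources used here, nor is how probes were grouped into probe sets. No batch is labelled. Of 29214 probe sets 15310 had 1 gene symbol in the platform annotation, 323 several and 13581 none. Symbols were updated with RefSeq (GRCr8), which held 15279, and the brightest probe set stood for each of 14506 genes.

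Tests used limma 3.58.1 (R 4.3.3; lmFit, eBayes) in 1 fit of all 17 arrays by group, two-sided, with Benjamini-Hochberg adjustment over all probe sets. The spread is pooled over the 4 groups (median SD 0.139 with control plasma, 0.094 with phenylephrine, 0.160 after and 0.249 before NHD), and the number of arrays limits precision. On simulated data of this layout 8% of 50 probe sets raised by 0.5 log2 units were recovered. The share was 50% of 50 raised by 1, 62% of 50 lowered by 1 and 92% of 50 raised by 2, with 3 false calls. The simulated noise was normal with the same SD in all 4 groups, and few probe sets were changed. These shares and false calls therefore do not carry over to the real groups, whose spreads differ.

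The members, the 33 gene lists (868 of 967 genes measured) and the motifs were chosen with earlier results of these data known. Named genes are the 12 largest increases and decreases, the 4 members of a list with the smallest p, all hypertrophy and adrenergic genes, a few classical markers, and the 10 genes farthest above and below all groups. Motifs are counted per promoter window with no test. Promoters are printed for the 3 called members of smallest adjusted p holding the motif.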

Additional observations from a re-analysis of the deposited data

Results flagged for a closer look

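Among the 6 uremic plasma arrays of a group, 4 single values lay far from the other 5 by Dixon's test, out of 58 groups of values of 29 genes, and chance marks about 1 in 20 groups. They concern arrays outside the comparison with control plasma whose spread enters its standard errors. In before NHD replicate 4, Myh7 was at 13.20, with the nearest other array at 12.96. The same array had Rcan1 at 12.74, with the nearest other at 11.43. In before NHD replicate 6, Mx1 was at 6.35 (nearest other 5.27) and Rsad2 at 7.14 (nearest other 5.62). The phenylephrine values of Mx1, 7.02 and 7.47, lay above that array, and of Rsad2 1 of 2 did, since 7.12 and 7.78 stood beside 7.14. Groups of 2 and 3 arrays were not examined in this way.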

How the results depend on the processing

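The number of probe sets called against control plasma, 5471, became 9072 in a fit of only the 5 arrays compared, 8628 without the before NHD group and 12602 with array weights. With single arrays left out it ranged from 1621 (without phenylephrine replicate 1) to 4877. A lone phenylephrine array is then assumed to vary like the other groups. The 286 calls against after NHD plasma became 966, 1375 and 2918 in the same 3 settings, and 16 and 42 without phenylephrine replicates 1 and 2. The 1268 calls against before NHD plasma became 34 with only the arrays compared, 2022 with array SD as a covariate, 4764 with array weights, and 71 and 129 without phenylephrine replicates 1 and 2. Of the 34, 28 were higher, and of the 71, 56, and of the 16, 15. In the brighter part of the probe sets the calls against after NHD plasma split into 103 higher and 191 lower, and those against before NHD plasma into 521 and 891, with fewer probe sets tested. The cause of the other shifts was not tested. The labels do not say that replicate numbers pair samples. Deviations of same-numbered phenylephrine and control arrays correlated at 0.03 and 0.1, and those of differently numbered ones at -0.1 to 0.1. The deviations of the 2 phenylephrine arrays mirror each other, so these values are not independent and cannot decide on a pairing. With the replicate block 7326, 694 and 2447 probe sets were called. Of 220 named genes none changed direction in a call, and 11 without a call changed sign in at least 1 setting, among them Edn1, Adra1d, Adrb1, Myh6 and Prkca. Most lost calls came without phenylephrine replicate 1 (68) or 2 (65), and 27, 11 and 28 came without control replicates 1, 2 and 3.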
